A study of Arabidopsis thaliana with 24 samples.

Results

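Distal cells of the SPT reporter line were compared with Proximal cells of the same line, with cells released from Col-0 Arabidopsis thaliana root meristems by protoplasting and separated on how brightly their GFP reporter shone. The comparison took 6 of the 24 libraries of the series, 3 from SPT Distal cells and 3 from SPT Proximal cells. Of 32619 gene rows, 17365 had a mean of at least 1 FPKM (fragments scaled by transcript length and library size) over the 3 sorted zones of the line, Distal, Medial and Proximal, and these are called measured. The labels do not say what the zone names are relative to or which reporter intensity each zone had, so the names serve as labels only. The strain label gives the line as SPT and names no promoter construct, clone number or plant age, and all groups share the Col-0 ecotype and the protoplast step. The authors deposited 1 FPKM value per gene and zone over the 3 libraries, so no value below has an error or a replicate check, and the depth per library is unknown.

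A root meristem holds a stem cell niche, a region of small dividing cells and, further from the niche, cells that elongate and take on the features of vessel, endodermis, epidermis or root cap. Dividing plant cells are known for high transcript levels of ribosome, replication and mitosis genes, and differentiating cells for genes of cell walls, water channels and transporters. SPT (SPATULA, chromosome 4, positions 17414127 to 17416294 on TAIR10) encodes a basic helix-loop-helix transcription factor known from fruit development. In bulk samples of sorted cells, fewer cells of a type and less RNA per cell cannot be told apart.

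The SPT transcript itself stood at 1.36 FPKM in Distal cells, 5.66 FPKM in Medial cells and 26.5 FPKM in Proximal cells, a log2 difference of -3.54 between Distal and Proximal. Throughout, a difference is the log2 ratio of Distal to Proximal FPKM after adding 1 FPKM to each. A gene is said to have risen or fallen where its q value for Distal against Proximal is under 0.05 in the authors' deposited table, the only test at hand. By that rule 4281 measured genes rose, 24.7% of all, and 4015 fell, 23.1% of all. At least 2-fold higher levels in Distal cells, counted with no test, were found for 4227 genes (24.3%), and at least 2-fold lower levels for 3791 genes (21.8%). The median difference over all measured genes was 0.06, with quartiles of -0.86 and 0.96. The tails were uneven, since 731 genes were at least 8-fold higher in Distal cells and 193 at least 8-fold lower.

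The promoters of genes that fell held known growth motifs more often than those of genes that rose. Site II elements (TGGGCC or TGGGCT, known from promoters of ribosomal protein and proliferation genes) lay in the 250 bases before the gene start of 34.4% of the 3766 fallen and 13.1% of the 4042 risen protein-coding genes with a window. Among all 27443 protein-coding genes of the reference the share was 19.2%, and among the 16015 measured ones it was 23.3%. The telo-box (AAACCCTA) was found for 5.82% of the fallen genes, 1.61% of the risen genes, 3.67% of measured genes and 4.49% of all genes. Across bins of the difference the share with a site II element was 4.65% among genes at or above a difference of 3, 24.7% between -0.5 and 0.5, and 39.4% between -3 and -2. It was 31.2% in the lowest bin, of 154 promoters. E2F sites, described below, were found for 2.58% of fallen and 0.891% of risen genes, against 1.58% of measured and 1.41% of all genes. In the lowest bin 1 of the 154 promoters had an E2F site. The mitosis-specific activator core, also described below, was found for 25.3% of fallen and 20.6% of risen genes. Its share was 22.2% among measured and 20.6% among all genes. The G-box (CACGTG), known from light and stress genes, had 7.99% of risen and 6.51% of fallen genes, against 7.46% of measured and 6.49% of all genes. Both strands were searched, overlapping matches were counted once per promoter, and a match describes letters only.

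**Figure D1:**
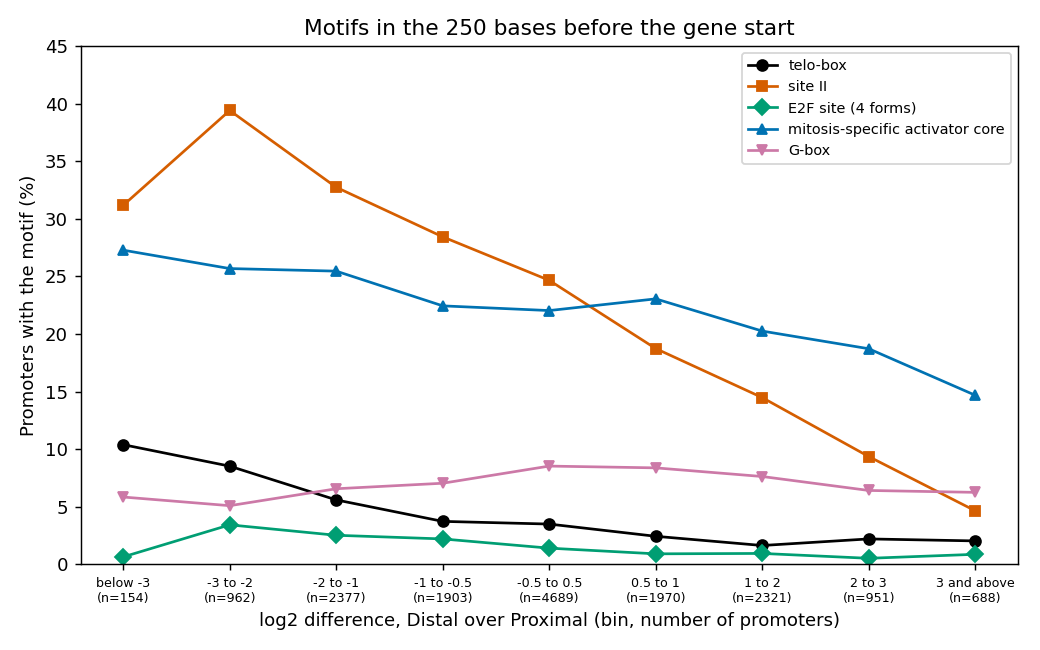
Share of promoters (vertical axis, percent) with each motif in the 250 bases before the gene start, by bin of the log2 difference between SPT Distal and Proximal cells (horizontal axis, with the number of promoters). The site II line is at 39.4% in the bin from -3 to -2 and at 4.65% in the bin at or above 3, and the G-box line stays between 5.09% and 8.53%.

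Promoter windows are shown for fallen genes of the nucleolus, ribosome, replication and mitosis, the groups in which these motifs were most frequent. They are the members of highest Proximal level that held the motif named and whose window touched no other annotated gene. The windows are the 250 bases before the RefSeq gene start on TAIR10.1, written 5′ to 3′ on the gene's strand, and capitals mark the motif on either strand. CBF5 encodes the pseudouridine synthase of the nucleolus, and its window (chr3:21156076-21156325, minus strand) has 2 site II elements in capitals. AT5G15200 encodes a cytosolic ribosomal protein, and its window (chr5:4936430-4936679, minus strand) has 4 site II elements and 1 telo-box.
CBF5: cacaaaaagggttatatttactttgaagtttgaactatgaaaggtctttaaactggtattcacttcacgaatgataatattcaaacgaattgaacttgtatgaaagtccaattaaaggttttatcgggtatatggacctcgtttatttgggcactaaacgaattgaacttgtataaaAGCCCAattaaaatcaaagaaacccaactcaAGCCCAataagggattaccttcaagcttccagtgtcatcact
AT5G15200: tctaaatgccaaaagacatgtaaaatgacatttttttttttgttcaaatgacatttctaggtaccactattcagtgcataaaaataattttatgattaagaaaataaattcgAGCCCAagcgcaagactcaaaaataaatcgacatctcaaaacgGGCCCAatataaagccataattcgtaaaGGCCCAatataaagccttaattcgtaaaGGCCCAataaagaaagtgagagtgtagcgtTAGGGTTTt
The windows of MCM3 (chr5:18773707-18773956, minus strand) and MCM5 (chr2:3527501-3527750, minus strand), subunits of the replicative helicase, show an E2F site. The forms searched were TTTCCCGC, TTTGGCGC, TTTCGCGC and TTTGCCGC, of the kind bound by the S-phase factors of the E2F family.
MCM3: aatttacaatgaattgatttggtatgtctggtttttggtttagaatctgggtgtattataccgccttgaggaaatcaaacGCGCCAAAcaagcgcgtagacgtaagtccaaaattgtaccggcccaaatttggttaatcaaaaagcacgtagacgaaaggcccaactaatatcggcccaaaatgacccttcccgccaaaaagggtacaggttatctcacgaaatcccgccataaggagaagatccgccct
MCM5: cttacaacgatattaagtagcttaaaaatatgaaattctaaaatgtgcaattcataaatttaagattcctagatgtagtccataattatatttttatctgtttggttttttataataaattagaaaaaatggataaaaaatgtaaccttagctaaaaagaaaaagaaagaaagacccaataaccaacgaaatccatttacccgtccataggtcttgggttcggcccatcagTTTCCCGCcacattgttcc
The windows of KN (chr1:2711001-2711250, minus strand), the cell plate syntaxin KNOLLE, and AUR1 (chr4:15842193-15842442, plus strand), an Aurora kinase, show the core of the mitosis-specific activator element (AACGG).
KN: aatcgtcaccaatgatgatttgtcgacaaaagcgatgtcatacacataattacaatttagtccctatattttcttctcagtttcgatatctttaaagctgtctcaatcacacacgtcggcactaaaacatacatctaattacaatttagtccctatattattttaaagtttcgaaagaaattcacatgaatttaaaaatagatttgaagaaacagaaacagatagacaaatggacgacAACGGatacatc
AUR1: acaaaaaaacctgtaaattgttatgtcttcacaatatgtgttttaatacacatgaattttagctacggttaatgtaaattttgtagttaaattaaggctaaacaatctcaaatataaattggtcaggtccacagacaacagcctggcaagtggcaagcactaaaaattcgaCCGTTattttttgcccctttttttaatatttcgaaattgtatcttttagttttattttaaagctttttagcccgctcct
Site II elements were present in 70.6% of 136 cytosolic ribosomal protein promoters and 62.5% of 16 ribosome biogenesis promoters. E2F sites were present in 7, or 35%, of 20 replication promoters, against 1.58% of measured and 1.41% of all genes. The activator core was present in 62.5% of 24 mitosis promoters, against 22.2% of measured and 20.6% of all genes. In the lists of differentiation genes, site II elements were found in 8.33% of 24 aquaporin promoters, 12.5% of 24 vessel promoters and none of 9 Casparian strip promoters. The mitosis list, which fell, had them in 12.5% of 24 promoters as well.

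Nucleolar and ribosomal genes fell together. All 16 measured ribosome biogenesis genes fell, with a median difference of -2.79 against 0.06 over all genes. CBF5 stood at 28.1 FPKM in Distal cells, 115 FPKM in Medial cells and 425 FPKM in Proximal cells. NUC-L1, a nucleolin of the nucleolus, stood at 34.2 FPKM in Distal, 101 FPKM in Medial and 322 FPKM in Proximal cells. FIB2, a fibrillarin that methylates ribosomal RNA, differed by -3.68, and NOP56, a core protein of the same particles, by -3.56. Of 136 measured cytosolic ribosomal protein genes, 132 fell, none rose and 4 had no call, with a median of -2.21. AT5G15200 reached 212 FPKM in Distal, 433 FPKM in Medial and 1078 FPKM in Proximal cells. The member with the highest Distal level among those with no call, SAG24, stood at 1014 FPKM in Distal, 939 FPKM in Medial and 862 FPKM in Proximal cells. For 135 of the 136 the Medial level lay between the Distal and Proximal levels.

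Other genes of translation and RNA handling fell in smaller shares. Of 32 nuclear genes for organellar ribosomal proteins 20 fell and none rose, with a median of -1.59. Among 45 measured aminoacyl-tRNA synthetase genes 31 fell and 4 rose, with a median of -1.13. Translation initiation factor genes had 27 falls and 2 rises among 44. The larger of the 2 rises was AT5G54940, with 758 FPKM in Distal, 435 FPKM in Medial and 105 FPKM in Proximal cells. Nuclear pore and importin genes had 15 falls and 3 rises among 21, and pentatricopeptide repeat genes, which act on organelle RNA, had 62 falls and 9 rises among 152. The proteasome stood apart from these, with 5 falls, 1 rise and 26 members of no call among 32, and a median of -0.27. Over all measured genes 24.7% rose and 23.1% fell. Rises were thus scarcer than that in every family of this paragraph, and falls were more frequent in all but the proteasome. Families here and below are genes whose product description in the reference names the family, with exceptions. Cytosolic ribosomal protein genes were found by the gene title that the authors deposited, and organellar ones by either source. Fasciclin-like and arabinogalactan genes were found by symbol as well.

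DNA replication, mitosis and chromatin genes fell with them. Of 20 measured replication genes 18 fell and none rose, with a median of -2.19. PCNA1, the sliding clamp, stood at 16.8 FPKM in Distal, 47.4 FPKM in Medial and 140 FPKM in Proximal cells. RPA1A and ORC1A, which bind single-stranded DNA and replication origins, had no call and differed by -0.48 and -0.55. Of 24 mitosis and cytokinesis genes 23 fell, with a median of -1.88 and a range of -2.60 to -0.90. KN stood at 9.09 FPKM in Distal, 22.1 FPKM in Medial and 60.1 FPKM in Proximal cells, and CYCB1;4, a mitotic cyclin, differed by -2.60. The member with no call was MAD2, a spindle checkpoint gene, at 4.28 FPKM in Distal and 28.9 FPKM in Proximal cells, with a q of 0.142 in the authors' deposited table.

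All 16 genes of chromatin assembly and DNA methylation fell, with a median of -1.94. NRP1, a histone chaperone, stood at 3.62 FPKM in Distal, 14.8 FPKM in Medial and 52.3 FPKM in Proximal cells. VIM1, which helps maintain DNA methylation, stood at 6.25 FPKM in Distal, 19.2 FPKM in Medial and 80.1 FPKM in Proximal cells. Histone genes were split, with 21 falls, 3 rises and 15 of no call among 39. HTA8, an H2A.Z variant, was at 14.1 FPKM in Distal, 37.8 FPKM in Medial and 245 FPKM in Proximal cells, among the largest falls of all. The histone H3 gene AT5G10980 was level, with 364 FPKM in Distal, 364 FPKM in Medial and 381 FPKM in Proximal cells.

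Related groups fell in part. Kinesin motor genes had 21 falls and 5 rises among 41, DNA damage response genes 12 falls and no rise among 17, and nucleotide synthesis genes 10 falls and 1 rise among 16. Cohesin and condensin genes had 6 falls and no rise among 13. Regulators of the cell cycle were more mixed. Of 18 genes of the retinoblastoma, E2F and MYB3R list, 7 fell, 1 rose and 10 had no call, with a median of -0.94. CDKA;1, the cyclin-dependent kinase present through the cycle, stood at 18.6 FPKM in Distal and 21.8 FPKM in Proximal cells. CYCD3;3, a G1 cyclin, fell to 11.2 FPKM in Distal cells, against 65.1 FPKM in Proximal cells, and CYCD3;1 rose by 0.78 on the log2 scale. Among inhibitors and endocycle genes, 5 rose and 3 fell of 19. Over all measured genes 24.7% rose and 23.1% fell, so rises in this list were about as frequent as among all genes. SIM, a CDK inhibitor of endoreduplication, rose to 41.3 FPKM in Distal cells, against 4.88 FPKM in Proximal cells, and CCS52A1, an activator of the same process, rose by 1.88. KRP7, another inhibitor, fell by 2.19.

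**Figure D2:**
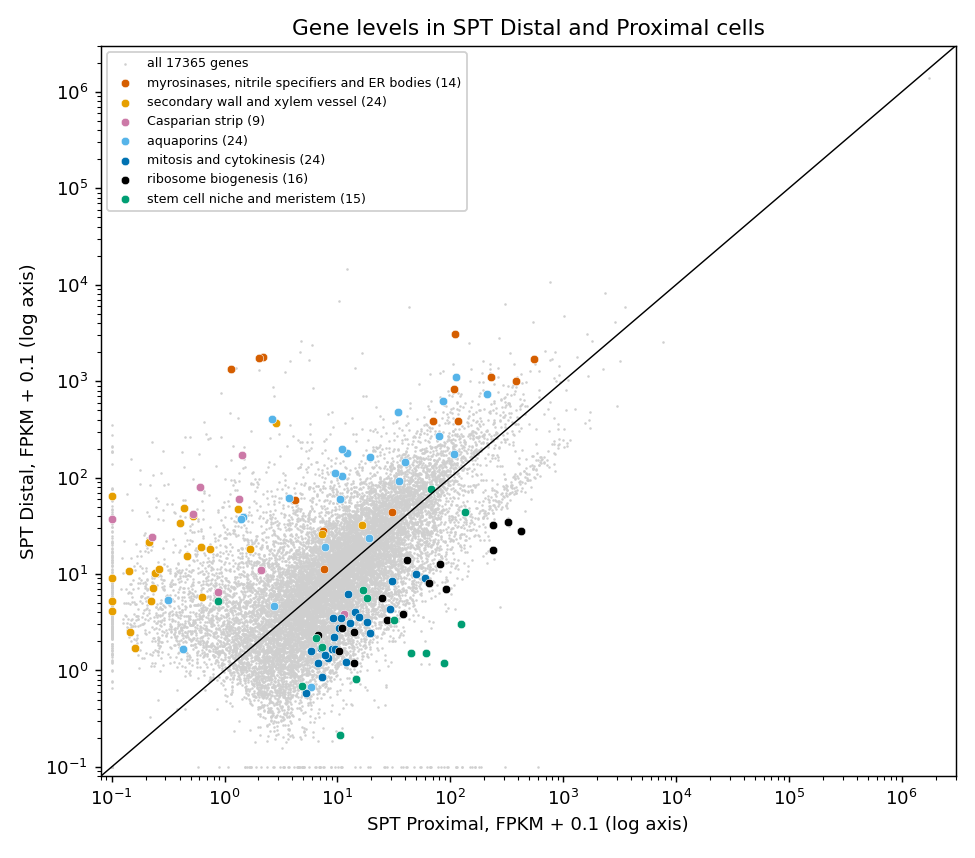
Each point is a gene, with its SPT Distal level (vertical axis) and SPT Proximal level (horizontal axis), both as FPKM plus 0.1 on log axes, and colours mark 7 gene lists. The 16 ribosome biogenesis genes and the mitosis genes lie below the line of equal levels, and the vessel genes lie above it, most of them at the low Proximal end.

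Stem cell niche genes were lower in Distal cells, with 11 falls and 1 rise among 15 and a median of -1.87. RGF2 and RGF3 encode secreted peptides that maintain the meristem. RGF2 stood at 1.11 FPKM in Distal, 2.32 FPKM in Medial and 87.4 FPKM in Proximal cells. RGF3 stood at 2.96 FPKM in Distal, 5.70 FPKM in Medial and 124 FPKM in Proximal cells. The Medial levels of both were close to their Distal levels. PLT1, an AP2-type factor of the niche, stood at 1.41 FPKM in Distal, 8.05 FPKM in Medial and 60.9 FPKM in Proximal cells. The exception was WOX5, the homeobox gene of the quiescent centre, which rose to 5.16 FPKM in Distal cells, against 0.772 FPKM in Proximal cells, with a q of 0.0396 in the authors' deposited table. Quiescent centre markers thus pointed both ways, since PLT1, PLT2 and AGL42 fell.

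Genes of the root cap were also divided. FEZ, a NAC factor of root cap stem cell divisions, fell to 1.43 FPKM in Distal cells, against 45.1 FPKM in Proximal cells, and NAC094 fell to 4.02 FPKM in Distal cells, against 91.9 FPKM in Proximal cells. BRN2, a NAC factor of late root cap maturation, rose to 233 FPKM in Distal cells, against 5.33 FPKM in Proximal cells. CEL5, a cellulase of cap cell separation, rose to 313 FPKM in Distal cells, against 43.4 FPKM in Proximal cells. SMB, a NAC factor of the cap that acts with them, had no call at 75.5 FPKM in Distal and 67.8 FPKM in Proximal cells. Of 8 measured cap genes 3 rose and 2 fell, where 24.7% of all measured genes rose and 23.1% fell.

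Vessel genes were higher in Distal than in Proximal cells and highest in Medial cells. Of 24 measured secondary wall and vessel genes 17 rose and none fell, 23 were at least 2-fold higher, and the median was 3.36. XCP2, a cysteine peptidase that clears vessel contents, stood at 368 FPKM in Distal, 648 FPKM in Medial and 2.78 FPKM in Proximal cells. TED6, a vessel membrane protein, stood at 63.9 FPKM in Distal and 72.9 FPKM in Medial cells and was listed at 0 in Proximal cells. CESA4, CESA7 and CESA8, the cellulose synthases of the secondary wall, rose by 3.54, 2.90 and 3.28. The Medial level was the highest for 21 of these 24 genes, against 19.1% of all measured genes. The switch genes had no call. VND7, a master factor of vessel fate, was at 5.13 FPKM in Distal, 11.95 FPKM in Medial and 0.125 FPKM in Proximal cells, and MYB46, a regulator of secondary walls, was at 21.4 FPKM in Distal, 41.6 FPKM in Medial and 0.115 FPKM in Proximal cells.

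Genes of earlier vascular identity differed from this. Of 18 measured, 9 fell and 3 rose, with a median of -0.66. TMO5, a factor of vascular cell divisions, stood at 5.11 FPKM in Distal, 12.6 FPKM in Medial and 9.41 FPKM in Proximal cells, and AHP6, an inhibitor of cytokinin signalling in early xylem, at 0.998 FPKM in Distal and 11.5 FPKM in Proximal cells. MP, an auxin response factor, fell to 26.0 FPKM in Distal cells, against 64.2 FPKM in Proximal cells. Phloem genes were more often higher, with 12 rises and 1 fall among 21. APL, a MYB-type factor of phloem identity, rose to 19.1 FPKM in Distal cells, against 0.667 FPKM in Proximal cells. SUC2, the sucrose carrier of companion cells, stood at 42.4 FPKM in Distal, 46.7 FPKM in Medial and 5.56 FPKM in Proximal cells.

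Markers of mature endodermis and of root hairs were higher in Distal cells. CASP1, a scaffold protein of the Casparian strip, stood at 173 FPKM in Distal, 89.5 FPKM in Medial and 1.33 FPKM in Proximal cells, a difference of 6.22. Of 9 measured strip genes 5 rose and 1 fell, with a median of 4.75. The fall was TPST, which sulfates peptides, at 3.79 FPKM in Distal and 11.2 FPKM in Proximal cells. PER64, a peroxidase of strip lignin, was at 79.8 FPKM in Distal and 0.508 FPKM in Proximal cells but had a q of 0.298 in the authors' deposited table. SCR, which specifies the endodermis early, fell to 5.58 FPKM in Distal cells, against 18.3 FPKM in Proximal cells, and JKD, marker of the cortex list, fell by 1.61. Suberin genes, which mark later endodermis, were mostly unmeasured, with 5 of 16 at or above the filter and none that rose.

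In the epidermis, 4 of 5 measured root hair markers rose. PRP3, a hair cell wall protein, rose to 15.4 FPKM in Distal cells, against 0.816 FPKM in Proximal cells, and the NADPH oxidase gene RHD2 rose by 2.08. Both measured markers of non-hair cells fell, GL2 to 2.58 FPKM in Distal cells, against 7.36 FPKM in Proximal cells, and WER to 28.6 FPKM in Distal cells, against 57.1 FPKM in Proximal cells. Root cap markers were divided, since BRN2 and CEL5 rose, FEZ fell, and SMB and CEL3 had no call. Markers of vessel and root hair, and most of those of endodermis, were thus higher in Distal than in Proximal cells. Their Medial levels differed, since all 8 vessel markers were highest in Medial cells and none of the 5 root hair markers was. Of 4 pericycle markers 2 rose and 1 fell. Whether the mixture of cell types in the sort shaped the other gene lists was not tested. None of 7 leaf mesophyll markers and none of 3 pollen markers was measured.

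**Figure D3:**
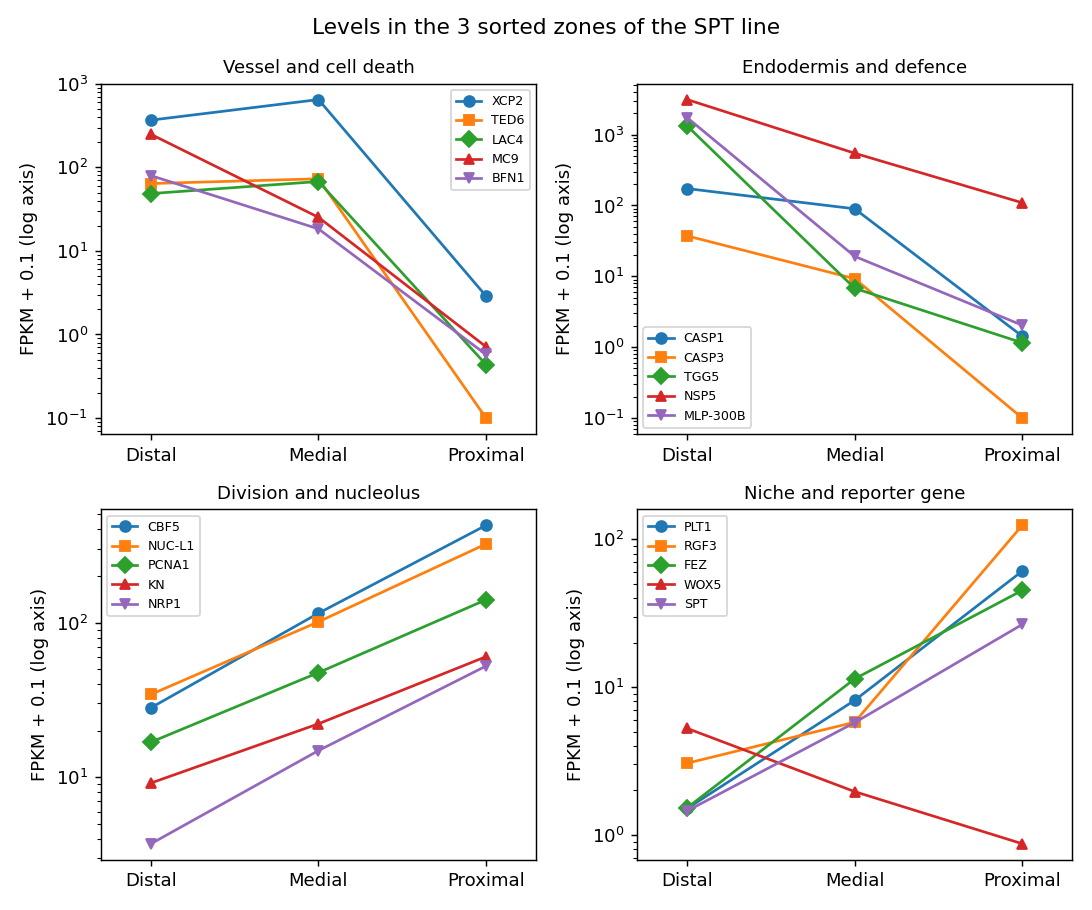
Levels (vertical axes, FPKM plus 0.1 on log axes) of 20 genes in the Distal, Medial and Proximal cells of the SPT line, with 1 pooled value per zone and no error. XCP2, TED6 and LAC4 are highest in Medial cells, the nucleolar and division genes climb towards Proximal cells, and WOX5 runs against PLT1, RGF3, FEZ and SPT.

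Genes of cell death, some shared with the vessel list, had the highest median of all lists, 5.77, with 5 rises among 7. MC9, a metacaspase, stood at 249 FPKM in Distal, 25.2 FPKM in Medial and 0.613 FPKM in Proximal cells. BFN1, a nuclease of dying cells, stood at 79.6 FPKM in Distal, 18.2 FPKM in Medial and 0.476 FPKM in Proximal cells. These 2 differed from XCP2 in being lower in Medial than in Distal cells. RNS3, a ribonuclease, was at 187 FPKM in Distal and 0.187 FPKM in Proximal cells without a call, at a q of 0.23 in the authors' deposited table. CEP2, a papain-type peptidase, rose to 1970 FPKM in Distal cells, against 16.4 FPKM in Proximal cells.

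Primary walls, lignin and wall loosening were higher in Distal cells. All 9 measured genes of primary wall cellulose rose, with a median of 1.40. CESA3, a cellulose synthase of primary walls, stood at 129 FPKM in Distal, 64.1 FPKM in Medial and 36.7 FPKM in Proximal cells. All 13 measured genes of monolignol synthesis, which makes lignin units, rose, with a median of 2.56 and a range of 1.19 to 3.15. PAL1, the entry enzyme of that pathway, stood at 191 FPKM in Distal, 155 FPKM in Medial and 21.3 FPKM in Proximal cells. Laccase genes, which join lignin units, had 6 rises and 1 fall among 10, and class III peroxidase genes 26 rises and 1 fall among 41. The single falls were TT10, a laccase known from seed coats, at 0.516 FPKM in Distal and 7.92 FPKM in Proximal cells, and the peroxidase gene AT2G43480, at 48.3 FPKM in Distal and 171 FPKM in Proximal cells.

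Expansins and xyloglucan enzymes, which loosen walls, had 22 rises and 7 falls among 41, with a median of 1.68. EXPA17 rose to 41.6 FPKM in Distal cells, against 1.42 FPKM in Proximal cells, whereas EXPA15 fell to 10.8 FPKM in Distal cells, against 74.8 FPKM in Proximal cells. Pectin methylesterases and their inhibitors had 20 rises and 3 falls among 41, polygalacturonases and pectate lyases 18 rises and 5 falls among 40, and fasciclin-like and arabinogalactan proteins 25 rises and 2 falls among 42. AGP30, an arabinogalactan protein of roots, stood at 698 FPKM in Distal, 173 FPKM in Medial and 17.7 FPKM in Proximal cells. Tubulin genes, in contrast, had 6 rises and 5 falls among 22, with a median of 0.13. Those counts were near the shares of all measured genes, 24.7% risen and 23.1% fallen. TUB1 rose to 78.7 FPKM in Distal cells, against 5.53 FPKM in Proximal cells, and TUB7 fell to 39.6 FPKM in Distal cells, against 102 FPKM in Proximal cells.

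Water channels, pumps and nutrient carriers rose. Of 24 measured aquaporin genes 19 rose and 1 fell, with a median of 2.63. NIP1;1 stood at 401 FPKM in Distal, 22.04 FPKM in Medial and 2.56 FPKM in Proximal cells. TIP2;2, a channel of the vacuole membrane, stood at 197 FPKM in Distal, 86.0 FPKM in Medial and 10.8 FPKM in Proximal cells. The fall was PIP2;8, at 0.579 FPKM in Distal and 5.72 FPKM in Proximal cells. Proton pump genes had 13 rises and 1 fall among 17, among them AHA2, the main plasma membrane pump of roots, with 111 FPKM in Distal and 33.2 FPKM in Proximal cells. AVP1, the vacuolar pyrophosphatase, had no call at 220 FPKM in Distal and 249 FPKM in Proximal cells.

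Nutrient and ion transporter genes had 19 rises and 1 fall among 32, with a median of 1.69. NRT3.1, the partner of high-affinity nitrate carriers, stood at 202 FPKM in Distal, 43.4 FPKM in Medial and 4.65 FPKM in Proximal cells. SULTR1;2, a sulfate uptake carrier, rose by 4.29, and PHT1;4, a phosphate carrier, by 3.77. A pair of boron transporters differed in direction. BOR2 rose to 87.8 FPKM in Distal cells, against 5.03 FPKM in Proximal cells, and BOR1 fell to 3.58 FPKM in Distal cells, against 9.79 FPKM in Proximal cells.

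Myrosinase genes were among the largest rises. TGG4 and TGG5 (also BGLU34 and BGLU35) encode root myrosinases, enzymes that split glucosinolates. TGG5, on chromosome 1 at positions 19087382 to 19090539 on TAIR10, stood at 1325 FPKM in Distal, 6.66 FPKM in Medial and 1.05 FPKM in Proximal cells, a difference of 9.34. TGG4 stood at 1774 FPKM in Distal, 7.81 FPKM in Medial and 2.08 FPKM in Proximal cells. Their longest RefSeq transcripts (AT1G47600 and AT1G51470) were 91.8% identical, so reads could be shared between them and the separate levels are uncertain. MLP-300B, related to myrosinase-binding proteins, stood at 1733 FPKM in Distal, 19.0 FPKM in Medial and 1.94 FPKM in Proximal cells. NSP5, a nitrile specifier that steers the products, stood at 3124 FPKM in Distal, 546 FPKM in Medial and 109 FPKM in Proximal cells. In the whole list of myrosinases, nitrile specifiers and ER bodies 12 of 14 rose and none fell.

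Glucosinolate synthesis, the source of the substrate, did not follow. Of 17 measured genes 8 fell and none rose, with a median of -0.96. CYP83B1, an enzyme of indole glucosinolates, fell to 19.5 FPKM in Distal cells, against 150 FPKM in Proximal cells. GTR1, a glucosinolate transporter, had no call at 50.6 FPKM in Distal, 111 FPKM in Medial and 32.8 FPKM in Proximal cells. Triterpene and coumarin genes had 8 rises and 1 fall among 10. THAS1, thalianol synthase, stood at 114 FPKM in Distal, 14.3 FPKM in Medial and 2.25 FPKM in Proximal cells, and the neighbouring gene THAH, which hydroxylates its product, at 411 FPKM in Distal, 73.7 FPKM in Medial and 13.4 FPKM in Proximal cells. MRN1, marneral synthase of a second triterpene cluster, rose by 5.30. Cytochrome P450 genes as a family had 48 rises and 5 falls among 95, and glutathione S-transferases 16 rises and 4 falls among 33.

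Genes without a symbol also had large rises, and those named here were chosen after their values were seen. The lectin gene AT1G52060 stood at 14639 FPKM in Distal, 216 FPKM in Medial and 11.96 FPKM in Proximal cells, a difference of 10.14. Its name covers several loci in the files, so this level is less certain. Its neighbours AT1G52070 and AT1G52050 differed by 9.23 and 8.88, and the 3 lie in 1 run on chromosome 1 (19354919 to 19366925 on TAIR10.1). The longest transcripts of the 3 were 68.4% to 73.5% identical. Lipid genes were also in this set by their product descriptions. AT1G06090, a fatty acid desaturase family gene, stood at 1366 FPKM in Distal, 45.6 FPKM in Medial and 1.15 FPKM in Proximal cells. AT3G06460, of the GNS1/SUR4 membrane protein family, stood at 758 FPKM in Distal, 10.6 FPKM in Medial and 0.83 FPKM in Proximal cells, and AT3G49190, a WSD1-like O-acyltransferase gene, differed by 7.92. Among the 200 largest rises of protein-coding genes 19 lay in 9 runs of direct neighbours, and among the 200 largest falls 6 lay in 3 runs. Runs among other sets of 200 genes were not counted.

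The other largest rises with a symbol were SCPL34, HMT3, MLP34, MAP18, scpl28, sks16 and HB1. SCPL34, a serine carboxypeptidase-like gene, stood at 1250.3 FPKM in Distal, 48.2 FPKM in Medial and 3.34 FPKM in Proximal cells. HMT3, a homocysteine methyltransferase gene, stood at 417 FPKM in Distal, 12.7 FPKM in Medial and 1.22 FPKM in Proximal cells. The remaining 5 ranged from 5.74 for HB1, a haemoglobin, to 6.87 for MLP34. Among the largest falls, ADF9, which acts on actin filaments, came first. ADF9 stood at 4.47 FPKM in Distal, 14.9 FPKM in Medial and 278 FPKM in Proximal cells, a difference of -5.67. IQD16 differed by -4.25, GRP4, a glycine-rich RNA-binding protein, by -3.93, TOM7-2 of mitochondrial import by -3.86, the peptide gene RGF8 by -3.79, HDA3, a nucleolar histone deacetylase, by -3.70, and NPY4 by -3.68.

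Starch genes were lower in Distal cells, with 12 falls and 2 rises among 23. GBSS1, the granule-bound starch synthase, fell to 0.606 FPKM in Distal cells, against 27.1 FPKM in Proximal cells. SEX1, which starts starch breakdown, also fell, to 8.15 FPKM in Distal cells, against 49.2 FPKM in Proximal cells. The larger rise was BAM1, a beta-amylase of the plastid, with 945 FPKM in Distal, 547 FPKM in Medial and 242 FPKM in Proximal cells. Autophagy genes had 11 rises and 1 fall among 26, with ATG8E, which marks autophagosomes, at 37.4 FPKM in Distal and 5.36 FPKM in Proximal cells. Heat shock genes had 10 rises and 15 falls among 58, where 24.7% of all measured genes rose and 23.1% fell. Their median of 0.08 was near the 0.06 of all genes. The falls were led by HSP60, a mitochondrial chaperonin, at 16.9 FPKM in Distal and 136 FPKM in Proximal cells.

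Hormone genes moved in both directions. Among 53 measured auxin genes 29 rose and 9 fell, with a median of 1.104. IAA19, an auxin-induced repressor, stood at 338 FPKM in Distal, 186 FPKM in Medial and 25.5 FPKM in Proximal cells. GH3.1, whose family joins auxin to amino acids, rose to 115 FPKM in Distal cells, against 7.92 FPKM in Proximal cells. Carriers were among the falls, with LAX2, an influx carrier, at 3.11 FPKM in Distal and 70.6 FPKM in Proximal cells, and PIN4, an efflux carrier, at 15.3 FPKM in Distal and 194 FPKM in Proximal cells. IAA7 and IAA17 had no call and differed by 0.39 and 0.40.

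Cytokinin genes had 20 rises and 5 falls among 31. LOG7, which activates cytokinin, rose to 309 FPKM in Distal cells, against 19.4 FPKM in Proximal cells, while LOG4 and LOG3 fell. Abscisic acid genes had 17 rises and 2 falls among 33, and jasmonate genes 14 rises and 3 falls among 27. CYP707A1, which breaks down abscisic acid, rose by 3.15, and NCED2, of the synthesis pathway, fell by 2.83. Ethylene genes had 6 rises and 4 falls among 22. Gibberellin genes had 6 rises and 7 falls among 20, and brassinosteroid genes 5 of each among 21. Over all measured genes 24.7% rose and 23.1% fell, and the ethylene and brassinosteroid counts were near those shares. GASA4, a gibberellin-responsive peptide gene and one of the most abundant transcripts, stood at 8163 FPKM in Distal, 2662 FPKM in Medial and 2352 FPKM in Proximal cells.

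Transcription factor families leaned towards rises. Of 43 measured WRKY genes 21 rose and 5 fell, of 57 NAC genes 19 rose and 7 fell, of 64 MYB genes 27 rose and 7 fell, and of 70 bHLH genes 26 rose and 9 fell. WRKY72 stood at 57.8 FPKM in Distal, 10.7 FPKM in Medial and 0.971 FPKM in Proximal cells. Among NAC genes ANAC087, NAC046 and RD26, known from cell death, senescence and stress, rose by 4.63, 3.99 and 4.29. MYB50 stood at 125 FPKM in Distal, 25.2 FPKM in Medial and 1.36 FPKM in Proximal cells. IBH1, a bHLH repressor of cell elongation, rose to 37.2 FPKM in Distal cells, against 1.43 FPKM in Proximal cells. Growth-regulating factors and their coactivators had 3 falls and no rise among 8, led by GIF1, at 0.91 FPKM in Distal and 18.04 FPKM in Proximal cells. Leucine-rich repeat receptor kinases had 35 rises and 23 falls among 104, where 24.7% of all measured genes rose and 23.1% fell. SUB, a receptor of tissue patterning, fell to 0.339 FPKM in Distal cells, against 13.4 FPKM in Proximal cells.

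**Figure D4:**
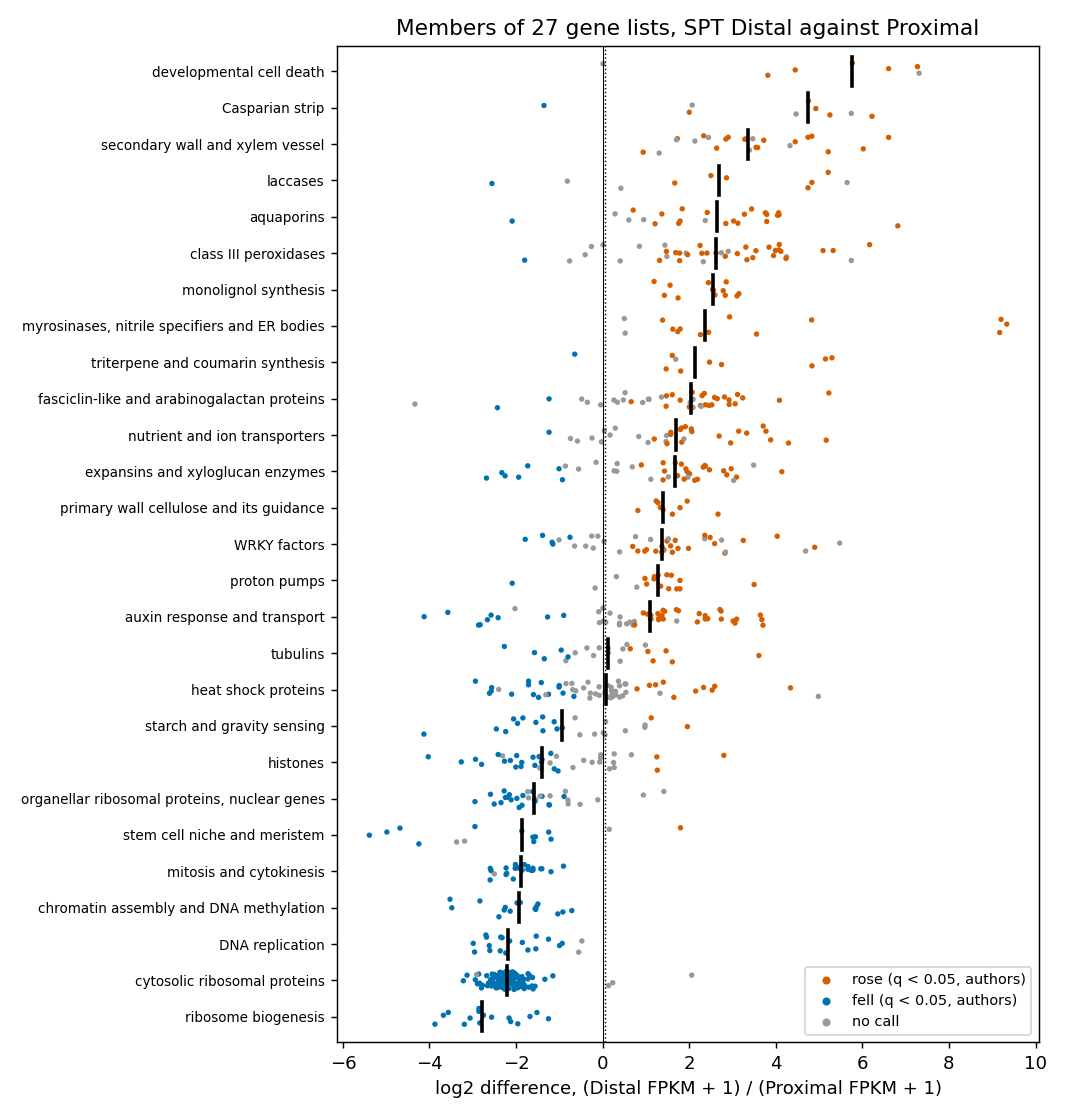
Log2 difference between SPT Distal and Proximal cells (horizontal axis) of each measured member of 27 gene lists or families (rows, ordered by median), with the median as a black bar and the median of all genes, 0.06, as a dotted line. Colours show the authors' calls, and medians run from -2.79 for ribosome biogenesis to 5.77 for developmental cell death.

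Medial cells lay between the others for most genes that changed. Of the 4281 risen genes 77.9% had a Medial level between those of Distal and Proximal cells, 18.4% were highest in Medial cells and 3.69% lowest there. Of the 4015 fallen genes 94.5% were between, 0.971% highest and 4.53% lowest in Medial cells. The median share of the log2 difference of Distal from Proximal cells that was reached in Medial cells was 0.596 for risen and 0.595 for fallen genes, against 0.601 over all measured genes. Over all measured genes 63.9% were between and 19.1% were highest in Medial cells, so the share of risen genes that were highest there was near that of all genes. TGG4 and TGG5 stayed closer to their Proximal than to their Distal level in Medial cells, whereas 21 of the 24 vessel genes were above their Distal level there.

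A large difference did not always carry a call. Of the 731 genes at least 8-fold higher in Distal cells 187 had no call in the authors' deposited table, and 164 of these had under 1 FPKM in Proximal cells. Among the 193 at least 8-fold lower 64 had no call, 57 of them under 1 FPKM in Distal cells. Genes listed at 0 in 1 of the 2 zones with at least 20 FPKM in the other numbered 37 with 0 in Proximal and 32 with 0 in Distal cells. Of the 37, 13 were shorter than 200 bases, and of the 32, 30 were. A call was given to 13 of the 37 and to 3 of the 32. The highest Distal level among the 37 was 354 FPKM for AT2G07758, a transfer RNA gene with no call. The highest Proximal level among the 32 was 603 FPKM for AT2G35382, a small nucleolar RNA gene. EDA11 was listed at 0 in Proximal cells and stood at 215 FPKM in Distal cells, and AT4G12090 was listed at 0 in Proximal cells and stood at 191 FPKM in Distal cells. Neither had a call, with q values of 0.233 for EDA11 and 0.226 for AT4G12090 in the authors' deposited table. Neither name has a single listed locus, so these levels are less certain.

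The same contrast in the PUB25 line (3 pooled libraries per zone, another reporter line of the series) gave values that differed by gene group. Genes of cell death, vessels and water transport were higher in Distal than in Proximal cells of both lines, with medians of 5.77 in SPT and 2.16 in PUB25 for cell death, 3.36 in SPT and 1.34 in PUB25 for vessels, and 2.63 in SPT and 1.97 in PUB25 for aquaporins. Ribosome biogenesis genes had medians of -2.79 in SPT and 0.48 in PUB25, and in the authors' deposited table of the PUB25 line 9 of the 16 rose and 1 fell. CBF5 in PUB25 stood at 366 FPKM in Distal and 189 FPKM in Proximal cells. Of all genes measured in SPT, 18.5% rose and 16.1% fell in PUB25. Casparian strip genes had medians of 4.75 in SPT and 0.65 in PUB25, and CASP1 in PUB25 stood at 8.02 FPKM in Distal and 2 FPKM in Proximal cells. The lines have a table each, and the differences between them were not tested.

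**Figure D5:**
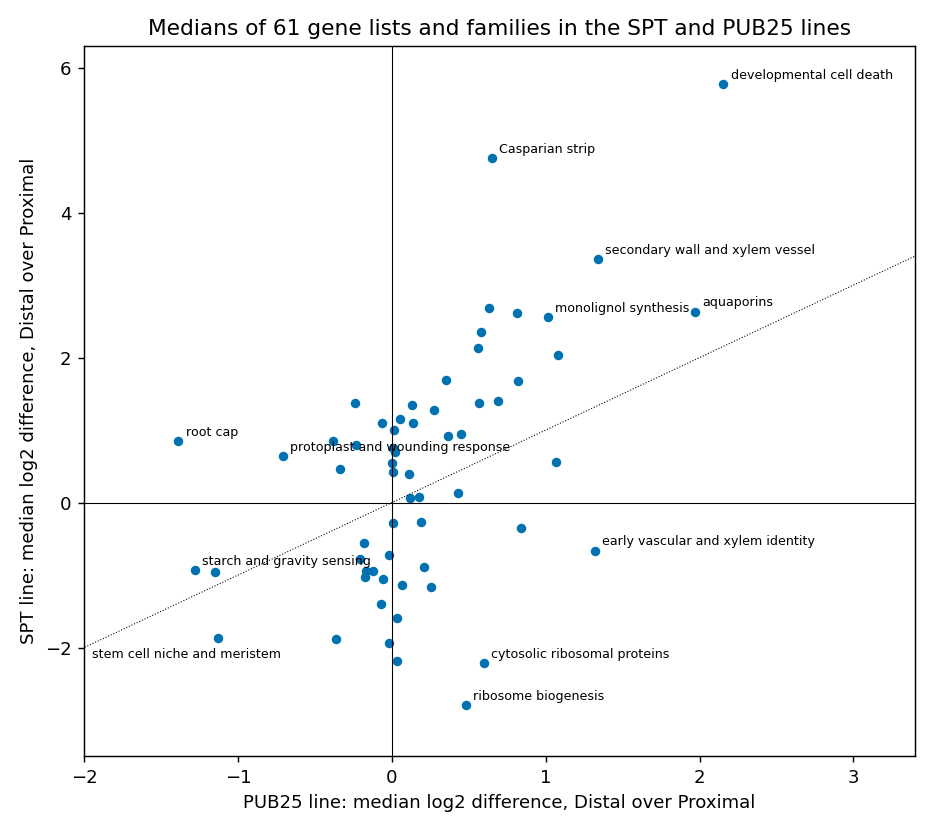
Median log2 difference between Distal and Proximal cells of 61 gene lists and families in the SPT line (vertical axis) and in the PUB25 line (horizontal axis), with equal medians on the dotted line. Ribosome biogenesis lies at -2.79 for SPT and 0.48 for PUB25, and developmental cell death at 5.77 for SPT and 2.16 for PUB25.

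Facts of the libraries bear on these values. Over the rows with a gene name, a single short gene, AT2G01021, held 67.0% of the summed FPKM in Distal, 74.9% in Medial and 77.8% in Proximal cells. Among these rows the next highest in Proximal cells was AT2G16586, uncharacterized in the reference, with 2536 FPKM in Distal, 6069 FPKM in Medial and 7608 FPKM in Proximal cells and no call. Of 22 measured genes of protoplast and wounding response 7 rose and 1 fell, where 24.7% of all measured genes rose and 23.1% fell. Their median was 0.64, against 0.06 over all genes. JAZ1, a jasmonate repressor induced by wounding, stood at 2045 FPKM in Distal, 1653 FPKM in Medial and 685 FPKM in Proximal cells, and DREB2A, a stress factor, had no call at 4761 FPKM in Distal and 1023 FPKM in Proximal cells. Their part in the other results was not tested. All 271 named plastid and mitochondrial gene rows were listed at 0, but loci without a gene name on those genomes were not. All 17 such chloroplast loci were above 0, with medians of 13.0 FPKM in Distal and 27.3 FPKM in Proximal cells, and 39 of 42 mitochondrial loci were above 0 in at least 1 zone.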

How the data were processed

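RNA was measured by sequencing in sorted root meristem protoplasts, with the RNeasy micro kit and the Ovation ultralow library kit per the labels' protocols. Per the submitters' processing notes, the tools were Bowtie, TopHat, Cufflinks and Cuffdiff with TAIR10, with versions and pooling not given in the sources used here. The authors deposited FPKM, 1 value per gene and zone over 3 libraries, with their q values (adjusted p-values) and log2 folds per the file headers. Per-library counts were not used here, so depth is unknown and no test was possible. From the FPKM, log2((Distal + 1)/(Proximal + 1)) was computed for genes whose 3 zones averaged at least 1 FPKM. A run on simulated data with large planted changes and little noise checked the calculation only, not the deposited values. The authors' log2 folds were recomputed from their FPKM and differed by at most 4.59e-05. Joined rows (1390) and 606 names with several loci carry less certain levels.

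Named genes were the 15 largest rises and 15 largest falls with a symbol, 1 locus, above 0 FPKM in both zones, at least 5 FPKM in the higher and q under 0.05, plus SPT, the most abundant genes, those listed at 0 in 1 zone, and the leading members of each list. PLT1, named as a list member, has several loci. The comparison and lists were chosen with earlier results of these data known. Motifs were searched in 250 bases before RefSeq gene starts on TAIR10.1. Alternatives were a pseudocount of 0.1, no filter, a mean of at least 5 FPKM, quantile normalization, median centring, leaving out joined and several-locus rows, and, added after seeing the data, q in place of 2-fold. Python 3.11.15, numpy 2.4.6, pandas 2.3.3 and matplotlib 3.10.9 were used.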

Additional observations from a re-analysis of the deposited data

Results flagged for a closer look

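Opposite calls in 2 lines drew attention. By the authors' deposited table of each line, a total of 639 genes fell in Distal cells of the SPT line and rose in Distal cells of the PUB25 line, 15.9% of the SPT falls, where 18.5% of all measured genes rose in PUB25. A further 396 rose in SPT and fell in PUB25, 9.25% of the SPT rises, where 16.1% of all measured genes fell in PUB25. Among all SPT falls and all SPT rises, opposite calls were thus no more frequent than those calls among all genes. The cytosolic ribosomal protein genes differed from this. Of the 136 measured, 132 fell in SPT, and 118 rose and none fell in PUB25. Their medians were -2.21 in SPT and 0.60 in PUB25. A rise in both lines was called for 1832 genes and a fall in both for 914 genes. The difference between the lines was not tested, and whether the zones of the lines hold like cells is not given by the labels.

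Loci without a gene name, of which only those on the plastid and mitochondrial genomes were described above, were counted as well. Of 218 such loci 171 had a mean of at least 1 FPKM, 39 of these were at least 2-fold higher in SPT Distal than in SPT Proximal cells and 62 at least 2-fold lower, with no test. By the same cutoff 24.3% of all measured genes were higher in Distal cells and 21.8% were lower. Higher loci were thus no more frequent than higher genes, and only lower loci were more frequent than lower genes. The sets differ in kind, since the 218 loci include 17 of the chloroplast and 42 of the mitochondrial genome. Named rows of those genomes were all listed at 0 and are not among the measured genes. Of the 218, 117 share their position with another locus without a gene name. On chromosome 4 at positions 17393591 to 17394136, 1 locus stood at 61.5 FPKM in Distal, 11.7 FPKM in Medial and 1.83 FPKM in Proximal cells, and the other at the same positions stood at 11.9 FPKM in Distal, 8.33 FPKM in Medial and 24.5 FPKM in Proximal cells. The highest level among the 218 was on chromosome 5 at positions 24741446 to 24741503, with 61810 FPKM in Distal, 78842 FPKM in Medial and 33963 FPKM in Proximal cells. A locus on chromosome 5 at positions 18891063 to 18891179 stood at 21.5 FPKM in Distal, 72.1 FPKM in Medial and 405 FPKM in Proximal cells.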

How the results depend on the processing

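Counts of genes at least 2-fold higher or lower stayed within 1.5 times their main values under every alternative run, except that 2400 genes were lower with a mean of at least 5 FPKM, where fewer genes (11853) were tested. Quantile normalization gave 3693 higher and 4045 lower genes, and the median of all genes was then -0.04, against 0.06 as reported. Of 61 list and family medians 22 crossed 2-fold or changed sign in some alternative. The median of suberin genes turned to 0.10 with no filter, where 15 in place of 5 members entered. AT2G07725, among the most abundant, turned to -0.80 under quantile normalization, and the cause was not tested. No paired analysis was possible because each zone has 1 pooled value, and leaving out a replicate could not be run for the same reason. Unknown depth limits what can be said of genes near 0.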
